A study of Mus musculus with 12 samples.

Results

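Chemokines are small secreted proteins that steer leukocytes through tissues, and chemokine receptors are the G protein-coupled receptors by which cells sense them. Most belong to the CC class (ligands Ccl, receptors Ccr) or the CXC class (ligands Cxcl, receptors Cxcr), named after the spacing of conserved cysteines. In the ovary they bring macrophages and other leukocytes to growing follicles, to the follicle wall at ovulation and to the corpus luteum. The genes described here are 48 whose name on the array is Ccl, Cxcl, Ccr or Cxcr followed by a number, of 30119 genes and transcripts in all. They are measured by 61 of 39429 probes. For the 10 genes with several probes the brightest one, by its mean over all samples, stands for the gene.

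The ovaries came from 12 adult female C57BL/6J mice, an inbred strain, at 2 months of age, with 4 mice in each of 3 diet groups. Control mice had a normal diet. Early-life mice had a diet deficient in vitamin D only in early life, and peripubertal mice had it only around puberty; how long each diet lasted and what it held are not given in the sources used here. All groups share the strain, sex, age and tissue, and the design text calls the 4 mice of a group biological replicates. RNA was labelled with Cy3 (replicates 1 and 3) or Cy5 (replicates 2 and 4) and read on 6 Agilent arrays, each with 2 samples of 1 group. Samples are called C1 to C4, E1 to E4 and P1 to P4 for control, early life and peripubertal.

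Some facts of the whole data set bear on every difference. All 4 peripubertal samples were read on a slide of their own, which makes any slide effect one that cannot be told apart from that diet. Group names follow the labels of the scanner files. In the separately deposited value table, 8 of 8 control and early-life columns carry the values of a scanner channel of the opposite group, so the sign of any control against early-life difference is not settled. If the arrays of these groups were exchanged, each value given for early life against peripubertal would be the one for control against peripubertal, and the reverse. Between 58.3% and 64.6% of probes in a sample were well above background, the scanner software's call that a spot is brighter than its surroundings. All 14 ovary markers (granulosa, theca, luteal and oocyte genes) passed the filter for testing. Levels are normalized log2 intensities, on which a difference of 1 is a doubling, and a level is only compared with levels of the same probe. Differences carry the standard error (SE) of 1 limma model over all 12 samples, and adjusted p is Benjamini-Hochberg adjusted over all 18559 genes and transcripts tested. In whole ovaries, fewer cells of a type and less RNA per cell cannot be told apart.

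Of the 48 chemokine and receptor genes, 18 were well above background in all 12 samples, 21 in some and 9 in none. A sample had 24 to 30 of them above background in controls, 22 to 32 in early-life and 24 to 31 in peripubertal ovaries, so the groups overlapped. Among 16 receptors, Ccr2, Ccr8, Cxcr3, Cxcr4 and Cxcr7 were detected in every sample and Ccr1, Cxcr2 and Cxcr5 in none. The second, dimmer Ccr8 probe was above background in 0 samples. Ccr2 guides monocytes, Cxcr3 and Ccr8 mark activated T cells, and Cxcr4 and Cxcr7 share the ligand Cxcl12. Cxcr2, the neutrophil receptor, and Cxcr5, which takes B cells into follicles of lymphoid tissue, stayed at background. Cxcr6, a receptor of T and natural killer cells, was detected in 8 samples. The remaining 7 receptors (Ccr3, Ccr4, Ccr6, Ccr7, Ccr9, Ccr10 and Cxcr1) were above background in 1 or 2 samples each. Ccr3, Ccr4, Ccr6 and Cxcr1 were so only in peripubertal ovaries, with 2 of 4 samples each. For Ccr4 and Cxcr1 these were P1 and P2 and for Ccr3 and Ccr6 P3 and P4, each time the pair that shares an array. Their levels were unlike. Ccr4 measured 10.89 and 9.88 in P1 and P2 and 6.27 to 6.97 in the other samples. Ccr6 measured 8.88 in P3 and 6.56 to 6.95 in the other samples with a level. Cxcr1 reached only 7.25 and 7.36 in P1 and P2, and Ccr3 7.11 and 7.19 in P3 and P4. The Ccr6 spot of P4 was an outlier, so that call stands without a level. These differences in detection were not tested, and the share of all probes detected only in peripubertal samples was not measured.

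**Figure D1:**
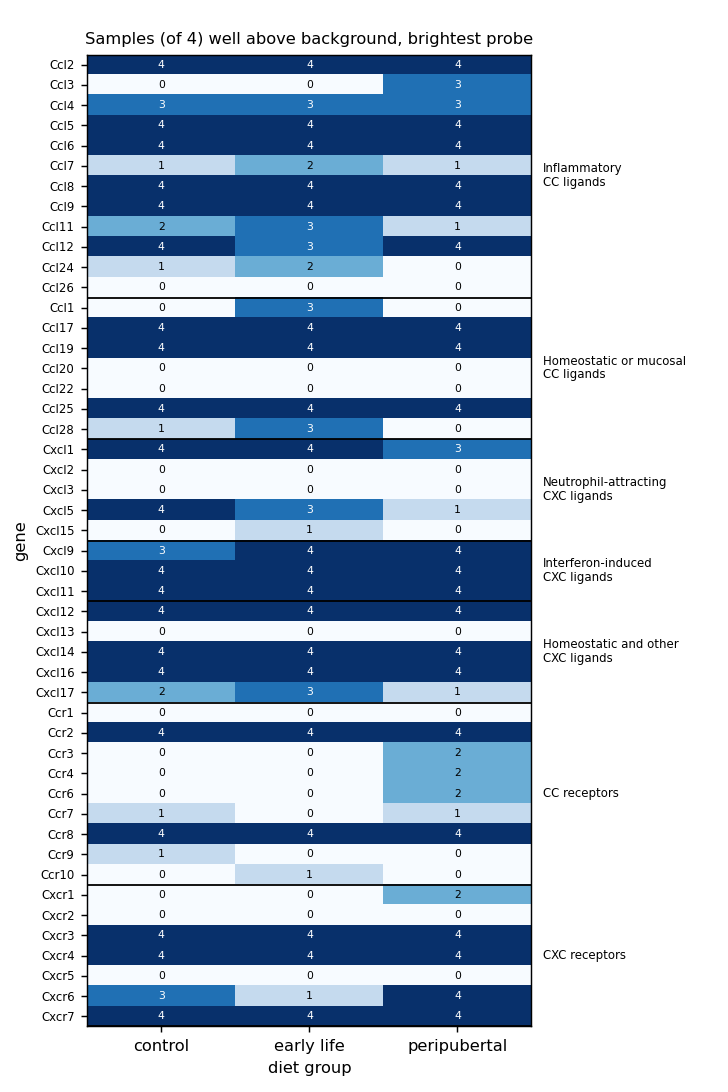
Number of samples, of 4 in each diet group, in which the brightest probe of each of the 48 genes was well above background; rows are genes ordered by role, columns are diet groups, and darker cells mean more samples. Dark rows across all 3 columns are the 18 genes detected in every sample, and the 9 rows of zeros were detected in none.

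Many inflammatory CC ligands, though not all, are induced in tissue macrophages and stromal cells and draw monocytes or T cells. Of the 12 inflammatory CC ligands here, Ccl2, Ccl5, Ccl6, Ccl8 and Ccl9 were detected in every sample. Ccl12 was detected in 11 samples and Ccl4 in 9, while Ccl11 (6 samples), Ccl7 (4) and Ccl24 (3) were detected less often. Ccl3, made by activated macrophages, was above background in 3 peripubertal samples and in no other, and Ccl26 in none. Of the 7 homeostatic or mucosal CC ligands, Ccl17, Ccl19 and Ccl25 were detected throughout, Ccl28 in 4 samples, Ccl1 in 3 early-life samples, and Ccl20 and Ccl22 in none. The Ccl1 means were nearly equal, at 6.91 in control, 6.94 in early-life and 6.92 in peripubertal samples. Its second probe was above background in 0 samples. The 3 interferon-induced ligands of Cxcr3 were measured almost throughout by their brightest probe, Cxcl10 and Cxcl11 in all samples and Cxcl9 in 11. A second Cxcl10 probe was above background in 0 samples, and the 2 Cxcl11 probes differed widely in level. Of the neutrophil-attracting ligands Cxcl1 was detected in 11 samples, Cxcl5 in 8 and Cxcl15 in 1, whereas Cxcl2 and Cxcl3 were not detected. Cxcl12, Cxcl14 and Cxcl16 were detected in every sample, Cxcl17 in 6, and the B cell attractant Cxcl13 in none. In all, 28 genes passed the filter of 4 samples above background and 2 values in each group; the 20 others were not tested.

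Promoter sequence was at hand in RefSeq (build GRCm38.p6) for 34 of the 48 genes, as 36 windows from 250 bases before to 50 after a start of transcription. Stretches with matches to regulatory motifs are shown for ligands named below, with the match in capitals, because interferon and NF-kB are known to induce these ligands. Each stretch has 30 bases on the gene's strand. ISRE stands for the interferon-stimulated response element, searched as GAAA, any 2 bases and GAAA, and NF-kB for the consensus site of that factor. Cxcl1, Cxcl2 and Cxcl3 are neutrophil-attracting ligands whose genes lie near each other on chromosome 5.
Cxcl10 ISRE, chr5:92349083-92349112, minus strand: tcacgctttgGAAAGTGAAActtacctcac
Cxcl10 NF-kB, chr5:92349029-92349058, minus strand: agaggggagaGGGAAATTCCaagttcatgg
Cxcl10 NF-kB, chr5:92348974-92349003, minus strand: tcggtttacaGGGGACTTCCCtcgggttgc
Ccl19 ISRE, chr4:42756554-42756583, minus strand: ttttgggacaGAAAGTGAAAgctcaaggca
Cxcl1 NF-kB, chr5:90891164-90891193, plus strand: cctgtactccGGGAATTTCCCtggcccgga
Cxcl2 NF-kB, chr5:90903792-90903821, plus strand: cctgagctcaGGGAATTTCCCtggtccccg
Cxcl3 NF-kB, chr5:90786018-90786047, plus strand: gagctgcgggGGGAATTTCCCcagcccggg

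Capitals longer than a single NF-kB site are overlapping matches, and both strands were searched. The ISRE was present in 3 of the 36 windows (Cxcl10, Ccl19 and Cxcl14) and in 3.443% of 32851 RefSeq promoter windows. The NF-kB consensus was present in 10 windows (Ccl1, Ccl9, Ccl20, Ccr1, Ccr3, Ccr6, Cxcl1, Cxcl2, Cxcl3 and Cxcl10) and in 8.459% of all. The vitamin D receptor site, searched as AGGTCA repeated after 3 bases, was in 0 of the 36 windows and in 0.006088% of all. A match describes these letters only; Cxcl1, for example, was detected in 11 samples and Cxcl2 and Cxcl3 in 0, although all carry the same capitals.

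Early-life and peripubertal deficiency were compared to see whether the time of the missing vitamin D leaves different ovaries. In early-life ovaries 2 receptors of mononuclear leukocytes were lower than in peripubertal ovaries. Cxcr6 and Ccr2 were lower by 0.66 and 0.76 on the log2 scale, that is 1.58-fold and 1.69-fold, and no chemokine gene was called higher. These were 2 of the 28 genes tested, 7.14%, against 2.7% of all genes (2.13% lower and 0.566% higher). The values of the groups lay apart in 9 of the 28 genes, 32.1%, all lower in early life, against 20.7% of all genes (14.1% lower and 6.54% higher). At an unadjusted p under 0.05 there were also 9, 32.1%, against 24% of all genes. The median difference was -0.25 over the 28 genes and -0.033 over all genes. Of the 28 differences 18 were negative and 10 positive. Cxcl17, Ccl28 and Ccl11, among the positive ones, met the detection filter only with the early-life samples, where their means were highest.

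Cxcr6 (probe chr9:123720719-123720778, build mm9), the receptor of Cxcl16, measured 6.67, 6.80, 6.76 and 6.91 in E1 to E4, 7.48, 7.67, 7.22 and 7.41 in P1 to P4, and 7.30, 7.05, 6.87 and 7.00 in C1 to C4. Every early-life value was under every peripubertal value, and the controls spanned the gap. It was above background in 1 early-life, 3 control and 4 peripubertal samples, so 3 of the 4 early-life values were not well above background. The means were 6.79 ± 0.10 (SD, n = 4) and 7.45 ± 0.19 (SD, n = 4) in early life and peripubertal, a difference of -0.66 ± 0.13 (SE; limma adjusted p = 0.0368). A second probe that overlaps the first differed by -0.46.

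Ccr2 (probe chr9:124022948-124023007), the receptor by which monocytes answer Ccl2, measured 7.00, 7.16, 7.33 and 7.51 in the early-life, 8.17, 7.99, 8.04 and 7.84 in the peripubertal and 7.57, 7.38, 7.72 and 7.20 in the control samples. The peripubertal values stood above all others, and early-life and control values overlapped. The difference was -0.76 ± 0.16 (limma adjusted p = 0.0425). The genes of these receptors lie on chromosome 9 with Ccr1, Ccr3 and Ccr9, which were not tested because too few samples were above background.

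Both calls rest on few samples. Without single samples Cxcr6 ranged from -0.60 to -0.72 and Ccr2 from -0.66 to -0.87, but the limma adjusted p reached 0.118 and 0.128. The Cxcr6 call ended without C2, C3, E1, E3, E4, P1, P2 or P4 (adjusted p 0.0526 to 0.118). That of Ccr2 ended without C1, C2, C3, E1, E3 or any 1 of P1 to P4 (adjusted p 0.0526 to 0.128). The size of both differences also depended on the processing. With the scanner software's processed signals Cxcr6 differed by -1.76 and Ccr2 by -1.48, and with no background subtraction by -0.80 and -0.88. With the mean of its probes Cxcr6 differed by -0.56.

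**Figure D2:**
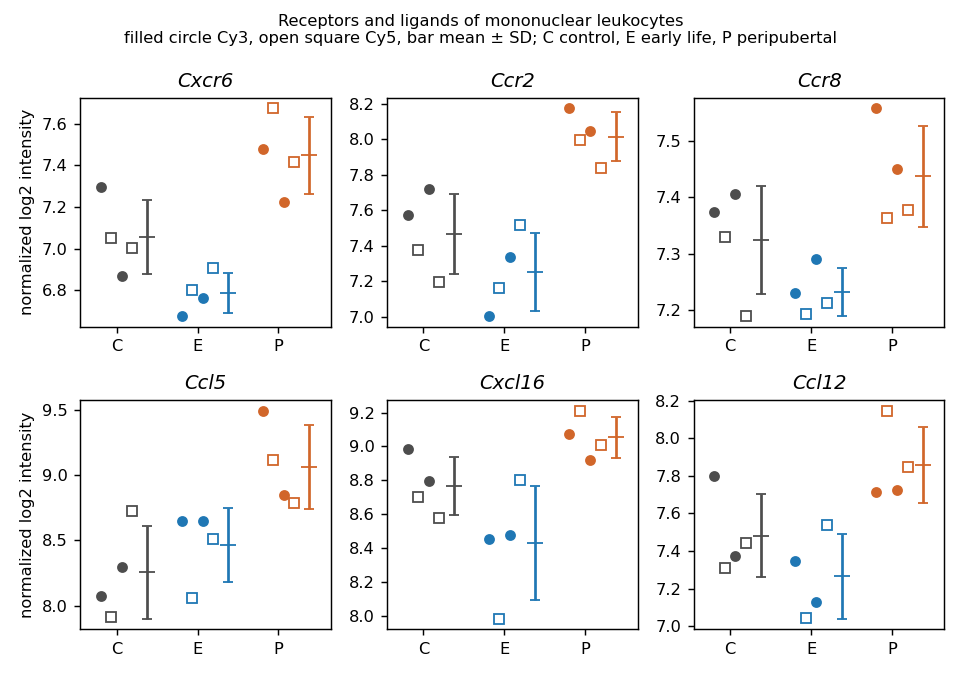
Normalized log2 intensity (vertical axis) of Cxcr6, Ccr2, Ccr8, Ccl5, Cxcl16 and Ccl12 in each of the 12 samples by diet group (horizontal axis: C control, E early life, P peripubertal); filled circles are Cy3, open squares Cy5, bars the group mean ± SD. In all 6 genes the 4 peripubertal points lie above the 4 early-life points.

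The other genes with the smallest p in this comparison did not pass the test. Cxcl16, the membrane-bound ligand of Cxcr6, measured 8.46, 7.98, 8.48 and 8.80 in early life, 9.07, 9.21, 8.92 and 9.01 in peripubertal and 8.98, 8.70, 8.80 and 8.58 in control samples. All early-life values were under the peripubertal ones, with a difference of -0.62 ± 0.19 (limma adjusted p = 0.0953). Ccl12, a mouse ligand of Ccr2, measured 7.35, 7.04, 7.13 and 7.54 in early life, 7.71, 8.15, 7.73 and 7.85 in peripubertal and 7.80, 7.31, 7.37 and 7.44 in control samples. These groups were apart as well, by -0.59 ± 0.19 (adjusted p = 0.115, limma). Ccl19, which guides dendritic cells and naive T cells through Ccr7, measured 8.02, 7.91, 7.90 and 7.77 in early life, 8.41, 8.52, 8.11 and 8.19 in peripubertal and 8.33, 8.19, 8.30 and 7.999 in control samples. Early life lay below peripubertal without overlap and overlapped with C4. It differed from peripubertal by -0.41 ± 0.12 (limma adjusted p = 0.0942), and the other 2 Ccl19 probes differed by -0.77 and -0.83. The mouse genome holds near-identical copies of Ccl19, which these probes may not tell apart.

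Ccr8, found on regulatory and helper T cells, measured 7.23, 7.19, 7.29 and 7.21 in early life, 7.56, 7.36, 7.45 and 7.38 in peripubertal and 7.37, 7.33, 7.41 and 7.19 in control samples. Early life was lower than peripubertal without overlap, by -0.21 ± 0.07 (limma adjusted p = 0.134). The second Ccr8 probe, not well above background in any sample, did not set these groups apart. It measured 6.49, 6.66, 6.55 and 6.61 in early life and 6.36, 6.55, 6.60 and 6.61 in peripubertal samples. The other 3 genes whose early-life values all lay below the peripubertal ones were Ccl5 (-0.60), Ccl4 (-0.30) and Cxcl10 (-0.59), with limma adjusted p of 0.173 to 0.389. By role, the median difference was -0.48 over 2 CC receptors, -0.51 over 9 inflammatory CC ligands and -0.42 over 3 interferon-induced ligands. It was -0.28 over 4 homeostatic or mucosal CC ligands, -0.05 over 4 CXC receptors, 0.18 over 4 homeostatic and other CXC ligands and 0.19 over 2 neutrophil-attracting ligands. The homeostatic and other CXC ligands were Cxcl14 (-1.11), Cxcl16 (-0.62), Cxcl17 (0.99) and Cxcl12 (1.88, on 2 values a group). Cxcl17 and, of the mucosal CC ligands, Ccl28 (0.98) met the filter only with early life, where their means were highest. Of the inflammatory CC ligands 7 were lower and 2 higher, and 0 passed.

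**Figure D3:**
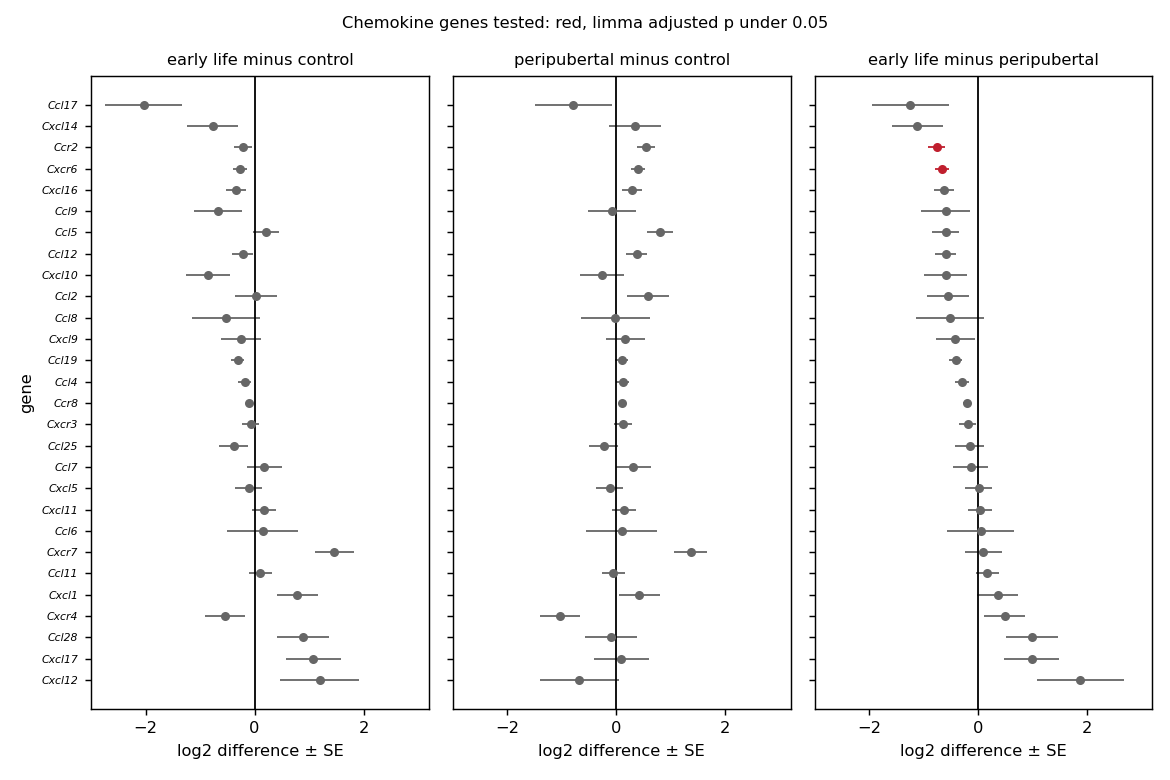
Log2 difference (horizontal axis, points with bars of ± 1 SE) of the 28 chemokine and receptor genes tested (vertical axis, ordered by the rightmost panel) in the 3 comparisons. Red points are Cxcr6 and Ccr2 in early life minus peripubertal, the 2 values with a limma adjusted p under 0.05; all others are grey.

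Peripubertal and control ovaries were compared to see what a deficiency around puberty leaves in the adult. No chemokine gene passed the test in it. Over all genes 48 passed, 0.259%, so a count of 0 among 28 is close to that background. At an unadjusted p under 0.05 there were 5 chemokine genes, 17.9%, against 11.4% of all genes, and in 3 genes (Cxcr7, Ccr2 and Ccl5) all peripubertal values were above all controls, 10.7% against 5.95% of all genes in that direction; in 0 were they all below, against 5.3%. Over all genes the groups were apart in 11.3%. The median difference was 0.11 over the 28 genes, 18 higher and 10 lower, and 0.0078 over all genes. This comparison shares the peripubertal samples with the one before.

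Cxcr7, also named Ackr3, takes up Cxcl12 and thereby limits its signal. It measured 10.78, 11.41, 11.29 and 11.05 in the peripubertal samples, 9.31, 9.50 and 10.30 in C1 to C3, and 11.22 and 11.17 in E1 and E3; the spots of C4, E2 and E4 were set aside by the scanner software as outliers. The controls were lowest and both deficient groups overlapped. Peripubertal minus control was 1.36 ± 0.30 (limma adjusted p = 0.205) and early life minus control 1.46 ± 0.35 (limma adjusted p = 0.227), the latter on 3 and 2 values. Cxcr4, through which Cxcl12 attracts cells, measured 9.42, 9.15, 8.71 and 8.84 in controls, 8.83, 8.20, 7.50 and 7.45 in peripubertal and 8.30, 8.49, 8.08 and 9.06 in early-life samples. P3 and P4, which share an array, were lowest, while P1 lay among the controls, and the difference was -1.03 ± 0.37 (adjusted p = 0.332, limma). Their ligand Cxcl12 kept few values on its brightest probe, 12.41, 12.09 and 10.37 in C1, C2 and C4, 14.15 and 11.86 in E1 and E2, and 12.26 and 11.55 in P1 and P3. The groups overlapped, and the direction of peripubertal minus control was not settled. The model, which accounts for dye and array, gave -0.68 ± 0.72, while the group means were 11.90 and 11.62, higher in peripubertal, and the second probe differed by 0.44.

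Ccl5, which T cells and macrophages make and which draws T cells and monocytes, measured 9.50, 9.12, 8.85 and 8.78 in the peripubertal, 8.07, 7.92, 8.30 and 8.73 in the control and 8.65, 8.06, 8.65 and 8.51 in the early-life samples. The peripubertal values were highest, P4 by little over C4, and the difference from control was 0.81 ± 0.24 (limma adjusted p = 0.258). The receptors described above differed between peripubertal and control by 0.55 ± 0.16 for Ccr2 and 0.39 ± 0.13 for Cxcr6 (limma adjusted p = 0.253 and 0.289), and Ccl12 by 0.38 ± 0.19 (limma adjusted p = 0.507). Ccr2 was apart, and the values of Cxcr6 and Ccl12 overlapped between these groups. If the control and early-life arrays are exchanged, these are the early-life against peripubertal values with the sign turned, and then 0 chemokine genes pass in that comparison and 2 in this one.

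**Figure D4:**
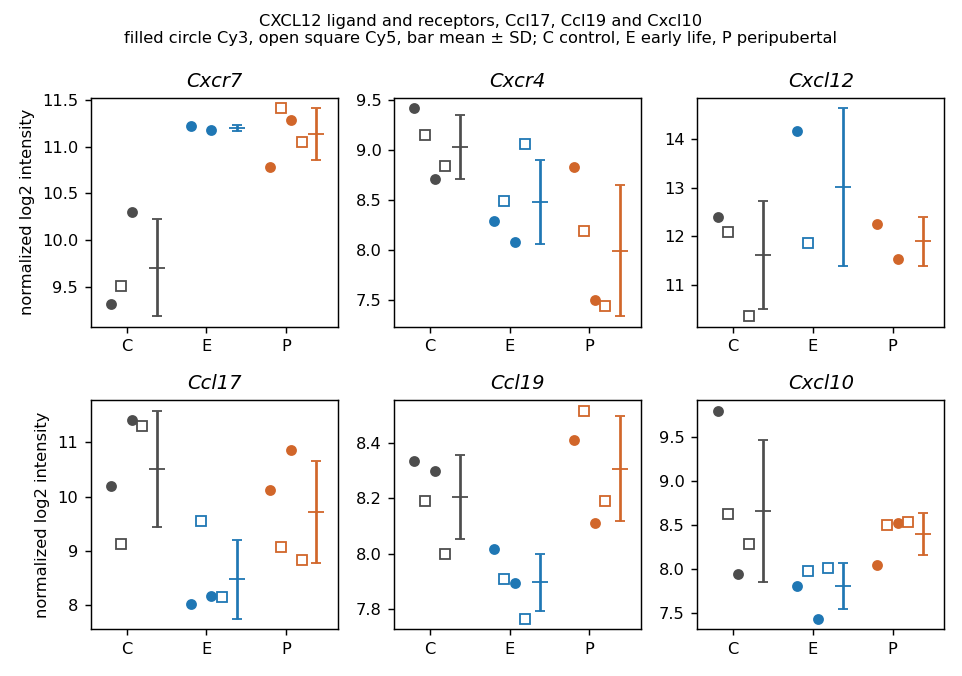
Normalized log2 intensity (vertical axis) of Cxcr7, Cxcr4, Cxcl12, Ccl17, Ccl19 and Cxcl10 in the samples of each diet group (C control, E early life, P peripubertal); filled circles are Cy3, open squares Cy5, bars the group mean ± SD, and outlier spots are left out. Cxcr7 is lowest in the controls, and Ccl17 is below 8.2 in 3 of 4 early-life samples.

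Early-life and control ovaries were compared for what an early deficiency leaves. Limma called 0 of the 28 chemokine genes and 0% of all genes. At an unadjusted p under 0.05 there were 3 chemokine genes, 10.7%, against 13.9% of all genes, and in 1 gene, Cxcr7, the groups were apart, 3.57% against 13.6% of all genes (4.23% higher and 9.35% lower in early life). The median difference was -0.14 over the 28 genes, 11 higher and 17 lower, and -0.024 over all genes. The 11 include Cxcl17, Ccl28, Ccl11 and Ccl7, which met the detection filter only with the early-life samples. On the deposited value table with its columns as labelled the median of the chemokine genes was 0.19, with the sign turned.

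Ccl17, which attracts Ccr4-bearing T cells, measured 8.02, 9.55, 8.17 and 8.16 in early life, 10.20, 9.12, 11.42 and 11.29 in control and 10.12, 9.06, 10.86 and 8.84 in peripubertal samples. E1, E3 and E4 were lower than all other samples and E2 lay above C2, with a difference of -2.03 ± 0.71 from control (limma adjusted p = 0.28). Cxcl10, the interferon-induced ligand of Cxcr3 whose promoter matches are shown above, measured 7.81, 7.98, 7.44 and 8.01 in early life, 9.80, 8.63, 7.94 and 8.28 in control and 8.05, 8.50, 8.52 and 8.53 in peripubertal samples. C1 stood high and C3 lay among the early-life values, and the difference from control was -0.85 ± 0.40 (adjusted p = 0.372, limma). Ccl19 and Cxcr6 differed from control by -0.31 ± 0.12 and -0.27 ± 0.13 (limma adjusted p = 0.322 and 0.379).

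Cxcl17, a ligand of mucosal epithelia, measured 8.04, 6.76, 8.17 and 9.19 in early life, 7.46, 6.60, 6.56 and 7.21 in control and 7.08, 7.16, 6.99 and 6.98 in peripubertal samples. E1, E3 and E4 were highest and E2 lay near C2, with a difference from control of 1.08 ± 0.51 (limma adjusted p = 0.373). Ccl28, also a mucosal epithelial ligand and named here after its values were seen, measured 7.84, 6.41, 7.50 and 8.55 in early life, 6.85, 6.40, 6.38 and 7.13 in control and 6.39, 6.73, 6.68 and 6.56 in peripubertal samples. The same 3 early-life samples were above background, with 1 control and no peripubertal sample for Ccl28 and 2 controls and 1 peripubertal sample for Cxcl17. Without early life neither gene would have met the filter of 4 samples, so these values are given as a description.

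Marker lists of other cells were measured beside these genes. Levels of a marker list are given as the mean deviation of its tested genes from their mean over the 12 samples, in log2 units. Of 11 macrophage markers, 10 were tested and Cd163 was detected in no sample. The list lay between -0.72 and -0.20 in early-life, -0.46 and 0.49 in control and 0.16 and 0.63 in peripubertal samples. Between early life and peripubertal 5 of the 10 fell (C1qa, C1qb, Adgre1, Mrc1 and Fcgr1), against 2.13% of all genes, and the median difference was -1.04. By sign 9 were lower and 1, Cd14, was higher (0.77). The dendritic and natural killer list, with 6 of 9 markers tested and Xcr1 and Ncr1 detected in no sample, lay between -0.23 and -0.11 in early life, -0.10 and 0.11 in control and 0.08 and 0.31 in peripubertal samples. Between early life and peripubertal 0 of these 6 passed, all 6 were lower by sign, and the median difference was -0.31. Flt3 differed by -0.01 only. In the means of both lists, as in Cxcr6 and Ccr2, all early-life samples were below all peripubertal ones. The same held for the endothelium list, with 8 of 8 markers tested. It lay between -0.27 and -0.07 in early life, -0.02 and 0.11 in control and 0.02 and 0.34 in peripubertal samples. Between early life and peripubertal 1 of the 8, Emcn, fell. By sign 6 were lower and 2, Kdr and Pecam1, were higher (0.08 and 0.07). Of 12 lymphocyte markers, 8 were tested and Cd8a and Cd8b1 were detected in no sample; this list lay between -0.20 and 0.15 over all samples with overlapping groups. The part of these cells in the receptor differences was not tested.

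The oviduct, which is joined to the ovary by a thin membrane, has a mucosal epithelium. Its list, with 10 of 11 markers tested, measured 2.16, -0.53, 1.41 and 2.55 in E1 to E4, 0.64, -0.95, -1.05 and 0.77 in C1 to C4 and -1.53 to -0.83 in the peripubertal samples. It was thus high in the early-life samples with high Ccl28 and Cxcl17, and C1 and C4 were the controls highest in all 3 measures. The part of oviduct tissue in these values was not tested. The granulocyte list had 6 of 10 markers tested, with Mpo and Prg2 detected in no sample. It lay between -0.40 and 0.93 in early-life, -0.64 and 0.14 in control and -0.50 and 0.02 in peripubertal samples. Its members disagreed: in early life minus peripubertal 3 were higher and 3 lower, 0 passed, and the median was -0.05. Ltf differed by 5.49, S100a9 by -1.05 and S100a8 by -0.83.

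**Figure D5:**
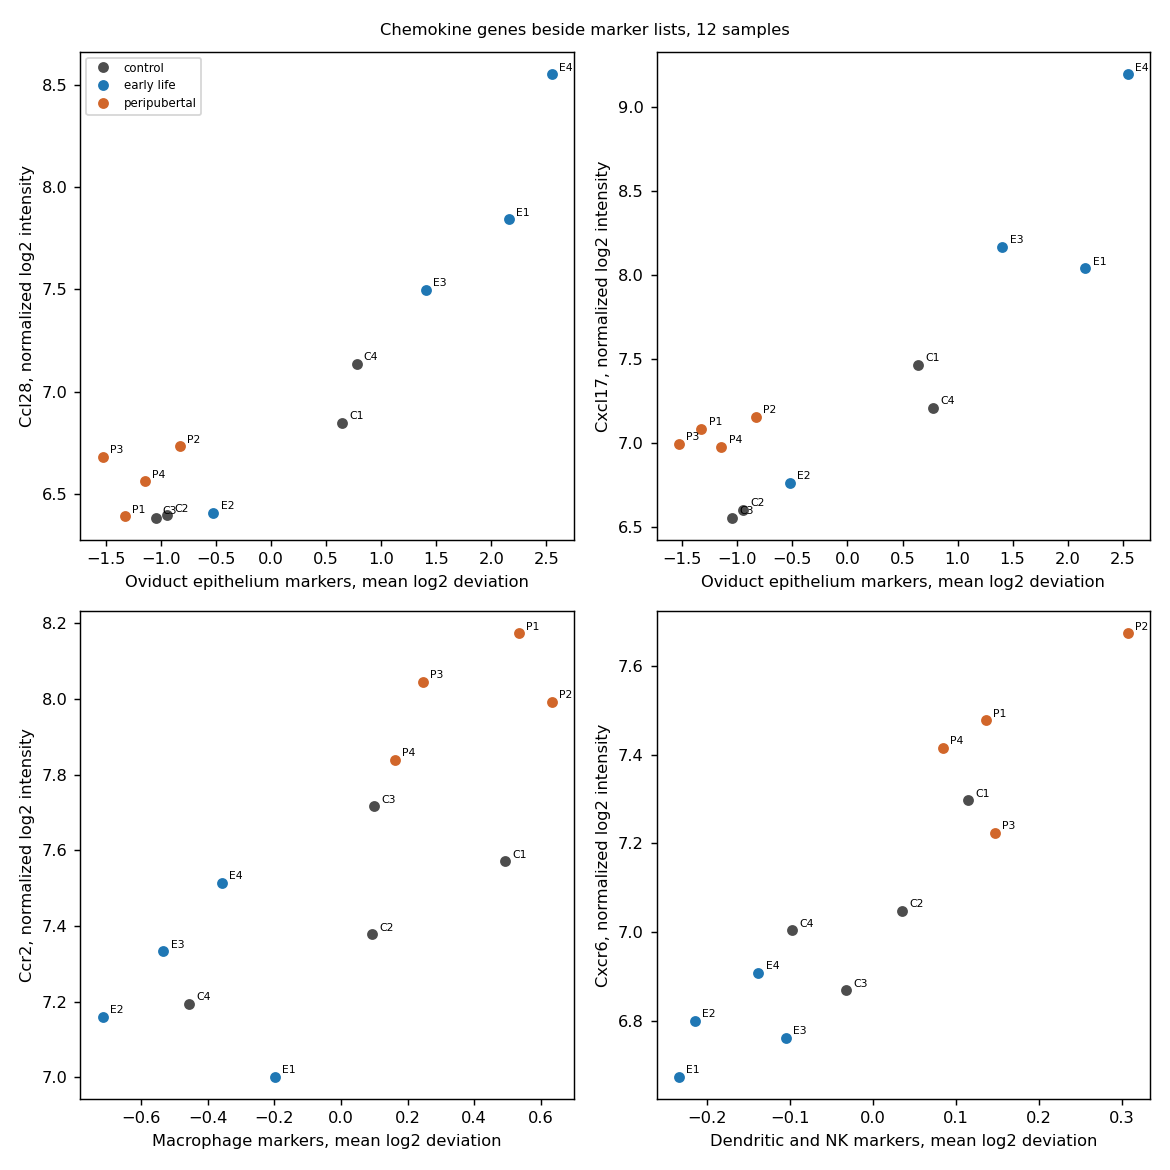
Normalized log2 intensity of a chemokine gene (vertical axis) against the mean log2 deviation of a marker list (horizontal axis), with 1 point for each of the 12 samples, coloured by diet group; samples share arrays in pairs. The upper panels show Ccl28 and Cxcl17 with oviduct epithelium markers, where E1, E3 and E4 lie at the upper right, and the lower panels Ccr2 with macrophage and Cxcr6 with dendritic and natural killer markers, where peripubertal samples lie to the upper right of early-life samples.

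Of 43 other genes of the chemokine system on the array (other ligands and receptors, scavengers, G proteins, arrestins and inducers), 33 were tested. In early life minus peripubertal 1 fell and 0 rose, a share near the 2.7% called over all genes, with 21 lower and 12 higher and a median of -0.17. The mean deviation of this list was -0.24 to 0.0008 in early-life and 0.03 to 0.12 in peripubertal samples, without overlap. The 1 that fell was Cx3cr1, the fractalkine receptor of monocytes and resident macrophages, at -1.30 ± 0.23 (limma adjusted p = 0.0313). The next were Gnai3, an inhibitory G protein subunit through which chemokine receptors signal, at -0.32 ± 0.08, and Cd74, a receptor of the cytokine Mif and chaperone of MHC class II, at -0.99 ± 0.24 (limma adjusted p = 0.053 and 0.057). In peripubertal minus control 0 of the 33 passed, with a median of 0.11, and Gnai3, Cx3cr1 and Mif differed by 0.28 ± 0.08, 0.76 ± 0.23 and -0.42 ± 0.15. In early life minus control 0 passed, with a median of -0.14. Dock2, which relays chemokine signals to the cytoskeleton of leukocytes, differed by -0.57 ± 0.11, the kinase Pik3cg by 0.82 ± 0.23 and the interferon regulator Irf7 by -0.64 ± 0.18 (limma adjusted p of 0.137 to 0.229). The inflammatory cytokines Tnf and Il1b, which induce many of these ligands, were above background in no sample.

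Among the remaining genes tested, no difference passed the test. Cxcl11 had a probe at 16.57 and another at 10.72 on average, both detected in all samples. Which of these levels is that of Cxcl11 was not tested. Its differences between groups were 0.04 to 0.17 on the brighter and 0.04 to 0.27 on the other. Ccl2, the main ligand of Ccr2, differed by -0.55 ± 0.38 between early life and peripubertal (limma adjusted p = 0.404), and Ccl6, Ccl7, Ccl8, Ccl9 and Ccl11 had limma adjusted p of 0.436 to 0.972 there. Cxcl14, an attractant of monocytes made by epithelia and stroma, differed by -1.11 ± 0.47 (adjusted p = 0.188, limma). Cxcl1 and Cxcl5, the neutrophil-attracting ligands tested, differed by 0.36 ± 0.37 and 0.01 ± 0.25. Cxcr3 differed by -0.19 ± 0.16 and its ligand Cxcl9 by -0.42 ± 0.36 (limma adjusted p = 0.488 and 0.512). Cxcr4 differed by 0.49 ± 0.37 (limma adjusted p = 0.446). Cxcl12 differed by 1.88 ± 0.80 in the model, on 2 values a group (limma adjusted p = 0.235); its group means were 13.01 in early life and 11.90 in peripubertal, and the second probe differed by 0.87. Ccl25, which draws T cells to thymus and gut, differed by -0.16 ± 0.27 (limma adjusted p = 0.571); of its 4 probes a dimmer one, above background in 6 samples, differed by -1.24, so the probes disagree in size. Over the 28 genes the median deviation of a sample from the 12-sample mean was -0.14 to 0.21 in control, -0.30 to -0.06 in early-life and -0.04 to 0.46 in peripubertal samples. The early-life samples were below the peripubertal ones in this measure, P2 was highest, and controls overlapped with both.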

How the data were processed

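Ovary RNA of 12 mice was read on 6 arrays, scanned in 2 colours. The deposited scanner files hold intensity values (mean signal, median background and processed signal per spot) and a call of spots well above background; per the file headers they were made with Agilent Feature Extraction 11.0.1.1, with probe positions on mm9. The log2 values of a further deposited file have a median of 0 in every column; how the authors made them is not given in the sources used here. They served only as an alternative, and the peripubertal columns match no array (best correlation 0.874 to 0.897).

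With R 4.3.3 and limma 3.58.1 (data.table, version 1.17.8, statmod 1.5.0), signals were corrected by normexp (offset 50) and then by loess (within arrays) and Aquantile (between arrays). Outlier spots were left out of the levels (3.22% of values) but kept in the calls of spots well above background. Probes were kept that had 2 values per group and stood well above background in 4 or more of the 12 samples; the brightest probe stood for a gene. The model held group and dye, with array as random block (correlation 0.288); calls have an adjusted p under 0.05. The fit was also run on data simulated from its own assumptions, which cannot test slide effects, outlier spots or exchanged arrays. Signal medians were 147 to 331 over backgrounds of 17.5 to 35; the number of arrays limits the precision. Probes were named through RefSeq accessions, which rename 1 gene (Cxcr7). Replicate numbers were not treated as pairs. Same-numbered samples correlated at 0.05 to 0.52 between control and early life and at -0.35 to 0.07 where a peripubertal sample was in the pair. Samples with unlike numbers were not compared, so a pairing of control with early life is not settled.

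Of the genes the rule matches, 1 is not reported here. The genes and lists were chosen with earlier results of these data known. Named are the 6 genes with the smallest p per comparison, any that passed, and up to 3 other chemokine-system genes per comparison; Ccl28 and genes given only by group or range were added. Alternatives are given in the closing part. Marker lists for endothelium, fat cells and red blood cells were also measured, with medians of -0.26, 1.37 and 0.23 in early life minus peripubertal. In early life minus control the medians were -0.26, 2.14 and 1.04, and 0 genes of these lists passed. The fat cell list lay between 0.19 and 2.59 in early-life, -1.99 and -0.19 in control and -1.31 and 0.87 in peripubertal samples. It was thus apart between early life and control. The part of these cells in the chemokine values was not tested.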

Additional observations from a re-analysis of the deposited data

Results flagged for a closer look

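In groups of 4 values, 7 of 78 had 1 sample far from the other 3; chance gives about 1 in 20. Ccl17 was 9.55 in E2, against 8.17 for the next early-life sample. Ccl2 was 8.51 in E4 and Ccl7 was 7.43 in C1, each above the rest of its group. Cxcl10 was 8.05 in P1, under the other peripubertal samples. Cxcl9, an interferon-induced ligand, was low in C2 at 6.85 and high in P2 at 8.53. Cxcl5 was 8.03 in P2, against 6.97 for the next, and it was the 1 peripubertal sample above background. P2 was thus high in 2 of these genes, and no cause was tested.

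The early-life and peripubertal groups differed by limma's test in Cxcr6 (-0.66) and Ccr2 (-0.76), as described above.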

How the results depend on the processing

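In early life minus peripubertal the chemokine count of 2 became 1 with the mean of a gene's probes, with no filter, with the replicate block and with probes above background in all 12 samples. It became 5 with no array block, 0 with probes above background in at least 1 sample, and 0 to 4 without single samples. The 4, without E2, added Ccl28 and Cxcl17, which met the detection filter only with early life. With the replicate block Cxcr6 passed (limma adjusted p = 0.0374) and Ccr2 did not (0.0505). The median of -0.25 became -0.48 with processed signals and -0.46 with probes above background in all 12 samples. The other 2 chemokine counts were 0 in every setting run. The genes named by rule kept their direction in the settings run for single genes, which do not include the deposited value table or Ccl28: 208 of their values under other settings and 199 without single samples kept their side of the threshold, 5 and 17 lost it, and 3 gained it. The early life minus control median turned to 0.19 on the deposited value table as labelled, whose control and early-life columns are the other way round.

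Counts over all genes moved more. Early life minus control went from 0 to 116 with no array block, 35 with no dye term, 19 with processed signals, 16 on the value table, 5 with no background subtraction, 6 with trend and robust variance, 1 with outlier spots kept, and 0 to 112 without single samples. Peripubertal minus control went from 48 to 159 with no array block, 81 with no dye term, 26 with outlier spots kept, 21 with no filter, 19 with the mean of probes, 14 with the replicate block or probes above background in all 12 samples, 13 with probes above background in at least 1 sample, and 0 to 29 without single samples. Early life minus peripubertal went from 501 to 2098 with no array block, 768 with no dye term, 299 with the mean of probes, 94 with probes above background in at least 1 sample, and 2 to 1581 without single samples. The cause of these moves was not tested.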
